A study of Mus musculus with 6 samples.

Results

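The 10 genes described here encode the inhibitory receptor PD-1 (Pdcd1), its ligands PD-L1 (Cd274) and PD-L2 (Pdcd1lg2), the receptors CTLA-4 (Ctla4), LAG-3 (Lag3), TIM-3 (Havcr2) and TIGIT (Tigit), the CTLA-4 ligands CD80 (Cd80) and CD86 (Cd86), and TOX (Tox), a transcription factor of chronically stimulated T cells. They were taken by symbol from a table of 21512 genes, with no filter on expression, and all 10 were found. RNA was sequenced from whole liver of 6 C57BL/6J mice that all received a high-fat diet and carbon tetrachloride (HFD/CCl4), a model of metabolic dysfunction-associated steatohepatitis (MASH) with fibrosis. Over the 12 weeks of this regimen, 3 mice were given an isotype control antibody and 3 an anti-PD-1 antibody, every 3 days. The labels give neither age nor sex. The titles name PD-1 for all 3 treated mice, and they were followed although the treatment entry of the second and the third of these mice carries a different number after "PD". Livers are numbered 1 to 3 in each group by their replicate number, and treated means given anti-PD-1. Both groups carry the diet and the toxin, and livers without them, or without any antibody, were not analysed here.

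PD-1 is displayed by activated T cells. When PD-L1 or PD-L2 on a neighbouring cell binds it, phosphatases are recruited that dampen signalling from the T cell receptor, and an antibody against PD-1 prevents that contact. CTLA-4 competes with the costimulatory receptor CD28 for CD80 and CD86 on antigen-presenting cells, while LAG-3, TIM-3 and TIGIT bind other ligands and accumulate, together with TOX, in T cells that meet antigen for a long time. In liver PD-L1 is found on macrophages, sinusoidal endothelium and other cells, where interferon-gamma is a well-known inducer of its gene. The antibody acts on the PD-1 protein, so Pdcd1 RNA is no check of whether the blockade worked.

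Every one of the 10 genes had its highest value in a single liver, number 1 of the anti-PD-1 group (treated liver 1), and none of the 10 passed the test between the groups. Over all genes, 19.3% were highest in that library. The value there was 1.24 to 10.5 times the highest value of the other 5 libraries, from Tox at the lower end to Ctla4 at the upper. In the other treated livers the 10 genes lay much closer to the controls. All 10 log2 fold changes of anti-PD-1 against control were positive with the 6 libraries, and 9 of 10 without treated liver 1, with a median of 1.06 and of 0.45 on the log2 scale. The same medians over all 21512 genes were 0.005 and -0.005.

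The deposited values are read counts scaled for library depth and are called normalized counts here. They were not scaled to equal sums, since the sum over all genes ran from 919982 in treated liver 1 to 1075055 in treated liver 3. Whole reads could be recovered from the normalized counts, and depth was 15528364 to 20779319 reads per library. A value of 0 allows up to 3 reads, or 0.144 to 0.2 normalized counts depending on the library, from counting error alone. Of the 10 genes, 5 (Pdcd1, Pdcd1lg2, Ctla4, Lag3 and Tigit) had at most 10 reads in every control, so their control levels are near the limit of detection. Hepatocyte markers summed to 65679 to 86496 normalized counts in controls and 63745 to 75499 in treated livers. Sinusoidal endothelial and stellate cell markers were present in every library.

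The promoters of the PD-1 ligand genes are shown first, since both genes lie next to each other in the mouse genome and Cd274 is the better expressed of the pair. Promoter windows of 300 bases, from 250 before to 50 after the annotated start, were taken from RefSeq (build GRCm38.p6, older than the submitters' GRCm39) for 7 of the 10 genes. Capitals mark the core letters bound by interferon regulatory factors, AANNGAAA on either strand, which 23.9% of all 32851 promoter windows hold.

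Cd274 (GRCm38.p6, chr19:29367188-29367487, plus strand): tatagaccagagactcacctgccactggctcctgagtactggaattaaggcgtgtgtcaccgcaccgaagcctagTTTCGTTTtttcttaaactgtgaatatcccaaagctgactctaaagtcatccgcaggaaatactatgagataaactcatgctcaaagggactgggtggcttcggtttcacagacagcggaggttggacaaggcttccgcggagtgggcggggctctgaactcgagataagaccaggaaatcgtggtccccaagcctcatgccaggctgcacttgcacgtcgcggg

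Pdcd1lg2 (GRCm38.p6, chr19:29410669-29410968, plus strand): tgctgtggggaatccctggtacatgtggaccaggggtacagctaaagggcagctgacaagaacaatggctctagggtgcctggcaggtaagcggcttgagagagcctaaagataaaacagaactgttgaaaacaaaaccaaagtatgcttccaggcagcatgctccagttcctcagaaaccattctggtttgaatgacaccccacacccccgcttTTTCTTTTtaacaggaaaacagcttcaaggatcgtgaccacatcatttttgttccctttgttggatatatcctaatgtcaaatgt

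In Cd274 the match begins at position -175 and in Pdcd1lg2 at position -35, counted from the annotated start. The windows of Pdcd1 and Cd80 also hold 1 match each, and those of Ctla4, Havcr2 and Tigit hold none. The letters TTCNNNGAA, a gamma-interferon activation site present in 8.3% of promoter windows, and GAAANNGAAA, a fuller interferon response element present in 3.44%, were in none of the 7 windows. The first of these reads the same on both strands, the second was searched on both, and every GAAANNGAAA match would also contain the shorter core. The shorter core was searched after neither longer motif had matched, so its presence is only a description of these windows.

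**Figure D1:**
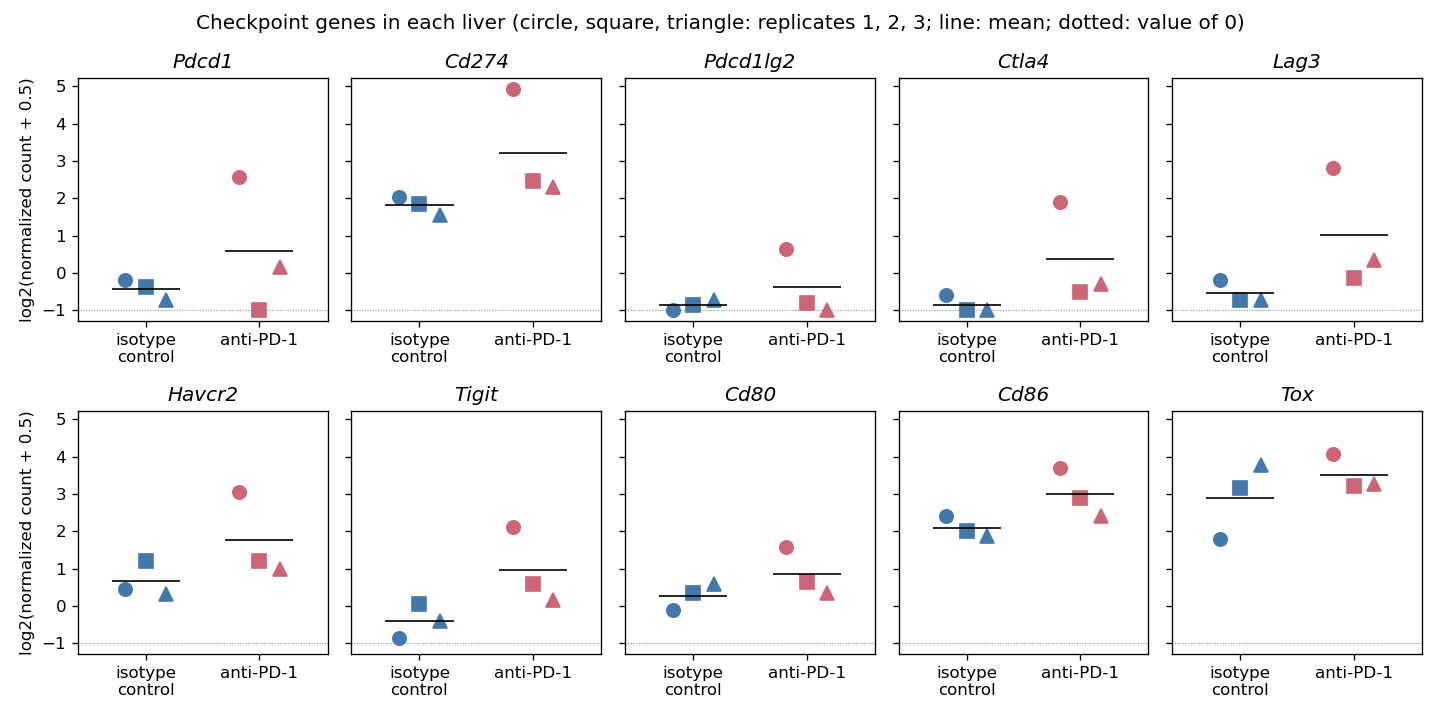
Level of each of the 10 genes in the 6 livers, as log2(normalized count + 0.5), with isotype control in blue and anti-PD-1 in red, replicates 1 to 3 as circle, square and triangle, and the group mean as a line. Treated liver 1 is the highest point in all 10 panels, and the control range of Pdcd1, Pdcd1lg2, Havcr2, Cd80 and Tox overlaps the treated range.

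Cd274, the PD-L1 gene, was at 3.61, 3.08 and 2.41 normalized counts in control livers 1 to 3 and at 29.8, 4.99 and 4.40 in treated livers 1 to 3. All treated values lay above all controls, with the first treated liver 5.96 times the next highest library. Its log2 fold change was 1.42 ± 0.61 (SE, 95% interval 0.02 to 2.81), with a limma adjusted p of 0.523 over all genes. Without treated liver 1 it was 0.57 ± 0.24 (SE), with an adjusted p of 0.418 by limma. AC119228.1, a gene model on the opposite strand that overlaps Cd274 exons in the older annotation, had 20, 16 and 11 reads in controls and 139, 27 and 17 in treated livers. The libraries were made with a directional kit, but whether the counting used strand is not given in the sources used here, so reads of this pair may not be fully separated.

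Pdcd1lg2, the PD-L2 gene, was close to undetected. It had 0, 1 and 2 reads in controls and 22, 1 and 0 in treated livers, so that nearly all its reads came from 1 library. Pooled reads per unit of depth were 7.91 times those of controls, with a counting interval of 2.39 to 41.1, and 0.552 times (0.011 to 6.88) without treated liver 1. These intervals leave out variation between mice. The log2 fold change was 0.47 ± 0.38 (SE, limma adjusted p = 0.723), and -0.05 ± 0.16 without that library. The groups overlapped, and the direction of the difference came from that 1 liver.

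Pdcd1, the receptor's own gene, had 7, 5 and 2 reads in controls and 113, 0 and 12 in treated livers, or 0.378, 0.271 and 0.101 normalized counts against 5.43, 0 and 0.621. The treated group therefore held both the highest and the lowest value of the 6 livers. With all libraries the log2 fold change was 1.01 ± 0.75 (SE, 95% interval -0.69 to 2.71, limma adjusted p = 0.695). When treated liver 1 was left out it was 0.02 ± 0.35, with an interval of -0.79 to 0.83.

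Lag3 encodes a receptor that binds MHC class II and fibrinogen-like protein 1. Controls were at 0.378, 0.108 and 0.101 normalized counts and treated livers at 6.48, 0.399 and 0.776. The groups did not overlap, but only narrowly: treated liver 2 had 6 reads and control liver 1 had 7, and depth scaling put the former above the latter. The log2 fold change of 1.55 ± 0.66 (SE, limma adjusted p = 0.521) was the highest of the 10 genes at this pseudocount, and it was 0.65 ± 0.26 (adjusted p = 0.39) without treated liver 1. The order depends on how low values are scaled: with a pseudocount of 0.1 Ctla4 was higher (2.44 against 2.39 for Lag3), as it was in edgeR (4.44 against 3.69) and DESeq2 (4.59 against 3.74), and with a pseudocount of 2 Cd274 was (1.17 against 0.81).

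Ctla4 was at 3, 0 and 0 reads in controls and 68, 3 and 6 reads in treated livers. Its separation is equally slight, since control liver 1 and treated liver 2 had 3 reads each, 0.162 and 0.2 normalized counts. Pooled reads per unit of depth were 26.5 times those of controls, with a counting interval of 8.73 to 131, and 4.97 times (1.24 to 28.5) without treated liver 1. Such intervals cover counting error only and leave out variation between mice, so they are no test between the groups. On the log2 scale the difference was 1.23 ± 0.56 (SE, limma adjusted p = 0.543), and 0.46 ± 0.19 (0.412) without that library.

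Tigit, whose product binds the nectin-like ligand CD155, showed the smallest limma adjusted p of the 10 genes. Controls were at 0.054, 0.541 and 0.251 normalized counts, from 1, 10 and 5 reads, and treated livers at 3.84, 0.999 and 0.621, from 80, 15 and 12 reads. All treated values lay above all controls. The log2 fold change was 1.36 ± 0.48 (SE, 95% interval 0.25 to 2.46, limma adjusted p = 0.449), and 0.78 ± 0.31 (adjusted p = 0.378) without treated liver 1.

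Havcr2 encodes TIM-3, which is found on T cells and also on macrophages and dendritic cells. It was at 0.863, 1.79 and 0.754 normalized counts in controls and 7.88, 1.8 and 1.5 in treated livers. Control liver 2 lay above treated liver 3 and level with treated liver 2, so the groups overlapped (log2 fold change 1.10 ± 0.53 SE, limma adjusted p = 0.561). It was 0.44 ± 0.33 (SE) without treated liver 1.

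Cd86, which costimulates T cells through CD28 and is also bound by CTLA-4, was at 4.80, 3.52 and 3.17 normalized counts in controls and 12.5, 6.99 and 4.81 in treated livers. The lowest treated liver, with 93 reads, was level with the highest control, with 89. Its log2 fold change was 0.91 ± 0.33 (SE, 95% interval 0.17 to 1.65, limma adjusted p = 0.453), and 0.56 ± 0.26 (0.451) without treated liver 1. Cd80, which shares both receptors with CD86, was at 0.432, 0.758 and 1.01 in controls and 2.50, 1.07 and 0.776 in treated livers. The groups overlapped, and its log2 fold change was 0.59 ± 0.36 (SE, limma adjusted p = 0.637), and 0.23 ± 0.29 without treated liver 1.

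Tox differed from the other 9 genes in its control values. Normalized counts were 2.97, 8.39 and 13.1 in controls and 16.3, 8.86 and 9.11 in treated livers, so treated livers 2 and 3 lay within the control range and control liver 1 stood far below the rest. The log2 fold change of 0.62 ± 0.46 (SE, limma adjusted p = 0.698) was 0.06 without control liver 1 and 1.05 without control liver 3. It was 0.34 without treated liver 1, and none of the other 9 genes moved as far on leaving out a control liver. In control livers 2 and 3 Tox lay above the sum of 13 T cell markers (6.49 and 3.82), and in control liver 1 below it (5.45). These values are not corrected for gene length, and the gene model of Tox holds 7609 exonic bases. Which cells its reads came from was not tested.

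Counted together, 0 of the 10 genes were called by limma (adjusted p from 0.449 to 0.723), where 0.00465% of all genes (1 gene) were called higher and 0% lower. The count over all genes was 55 with the replicate number as a block and 27 without treated liver 1, again with none of the 10 among them. At an unadjusted p under 0.05, 4 of 10 were higher (Cd274, Lag3, Tigit and Cd86), against 4.45% of all genes higher and 4.96% lower. In 5 of 10 genes (those 4 and Ctla4) all 3 treated values lay above all 3 controls, as in 6.63% of all genes, and in 0 of 10 they lay below, as in 8.52%. For these 5 genes an exact two-sided permutation test gave p = 0.1, the smallest it can give for 3 libraries against 3. That test ignores the replicate numbers, and with them kept as pairs the exact permutation p was 0.25, again the smallest possible. The members were chosen with earlier results of these data known, so these counts describe them and are no independent test.

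The 5 genes with all 3 treated values above every control keep that order by definition when treated liver 1 is left out. No other member joined them, and 15.2% of all genes had both remaining treated values above every control. At an unadjusted limma p under 0.05, 3 of 10 were then higher (Ctla4, Lag3 and Tigit), against 6.52% of all genes. None of the 10 was called, against 0.102% of all genes called higher. On the recovered reads edgeR called 0 of the 10 (adjusted p from 0.377 to 0.758, against 0.00465% of all genes called higher) with 7 at an unadjusted p under 0.05, where 4.86% of all genes were higher at that level. DESeq2 called 1, Lag3 (log2 fold change 3.74, adjusted p = 0.0184), against 0.958% of the genes to which it gave an adjusted p. It gave none to Ctla4 and Pdcd1lg2. With all libraries 6 of the 10 had an unadjusted DESeq2 p under 0.05, as had 1764 of the 21512 genes in either direction. Without treated liver 1, DESeq2 called 0 of the 5 members to which it gave an adjusted p (Cd274, Havcr2, Cd80, Cd86 and Tox). In that fit 0 of the 10 had an unadjusted p under 0.05, against 1995 of the 21512 genes in either direction. Of all genes with an adjusted p in that fit, 2.1% were called higher. Pdcd1, Pdcd1lg2, Ctla4, Lag3 and Tigit had none, and the log2 fold change of Lag3 was 1.6.

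**Figure D2:**
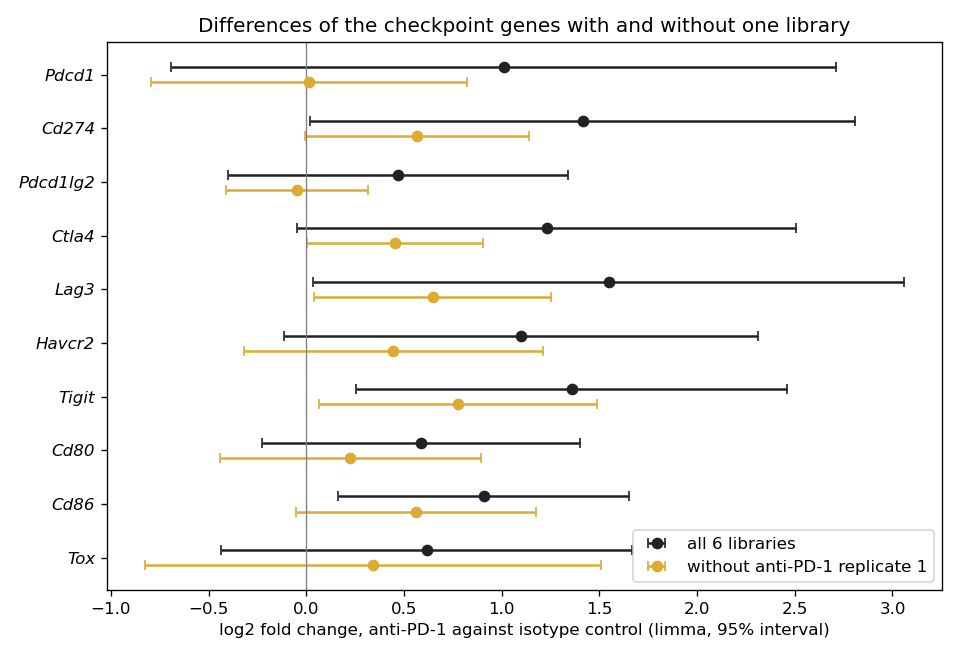
Log2 fold change of each gene, anti-PD-1 against isotype control, with its 95% limma interval, from all 6 libraries (black) and without treated liver 1 (yellow). Leaving out that library moved every estimate towards 0, and that of Pdcd1lg2 from 0.47 to -0.05.

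Per kilobase of exon in the GENCODE M21 gene model, the genes stood in another order in treated liver 1 than in controls. In controls Tox, Cd86 and Cd274 led, at means of 1.07, 1.05 and 0.839 normalized counts per kilobase, and their ranges over the 3 livers overlapped. Havcr2 (0.417), Tigit (0.307) and Cd80 (0.198) followed, each overlapping its neighbour in this order, then Pdcd1 (0.129) and Lag3 (0.093), and Pdcd1lg2 (0.026) and Ctla4 (0.023) were lowest. In treated liver 1 Cd274 stood first at 8.22 per kilobase and Tigit second at 4.18, while Tox was seventh at 2.15. In treated livers 2 and 3 Cd86 (1.91 and 1.31) and Cd274 (1.38 and 1.21) led, with Tox at 1.16 and 1.20 and Tigit at 1.09 and 0.676.

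Markers of immune cells were high in the same liver. The 13 T cell markers, among them the T cell receptor subunits Cd3e and Trac and the coreceptors Cd4 and Cd8a, summed to 3.82 to 6.49 normalized counts in controls and to 57.5, 8.59 and 11.3 in treated livers 1 to 3. All 13 had a positive log2 fold change and 0 were called, with a median of 1.01. Leaving out treated liver 1 gave 11 positive and a median of 0.35. Every marker measured in the 12 lists had reads in at least 1 control, and 1 regulatory T cell marker and 1 neutrophil marker were not analysed here. The 9 monocyte and macrophage markers summed to 345 to 486 in controls and 1210, 351 and 459 in treated livers. The 8 dendritic cell markers summed to 25.4 to 27.2 in controls and 47.4, 20.1 and 23.2 in treated livers, and the 5 neutrophil markers measured to 8.24 to 9.04 and 37.6, 6.86 and 10.7.

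Regulatory T cell markers (4 measured, with Foxp3 the defining one) summed to 2.61 to 3.95 in controls and 12.5, 3.60 and 3.62 in treated livers. Most of each sum was Ikzf2, at 1.94, 3.14 and 1.76 in controls and 9.65, 2.26 and 2.28 in treated livers. Foxp3 itself was at 0.432, 0.162 and 0.302 in controls and 1.297, 0.067 and 0.310 in treated livers. Natural killer cell markers (7 genes) summed to 1.57 to 2.64 and 9.22, 2.00 and 3.36, but their defining gene Ncr1 was at 0.593, 0.379 and 0.452 in controls and 0.192, 0.466 and 0.103 in treated livers. B cell markers (6 genes) summed to 5.19 to 10.8 and 12.8, 5.53 and 6.93. In the other direction, 6 of 7 Kupffer cell markers had a negative log2 fold change, with a median of -1.59. Cd163, Clec4f, Marco and Timd4 were below every control in all 3 treated livers, as were 8.52% of all genes. An unadjusted limma p under 0.05 was found for 5 of 7, against 4.96% of all genes lower, with 0 called. Cd5l and Folr2 hardly differed, with log2 fold changes of -0.02 and 0.04. Cd163, a scavenger receptor for haemoglobin, was at 17.3, 6.60 and 6.38 in controls and 1.44, 0.200 and 0.310 in treated livers (log2 fold change -3.21 ± 0.49 SE, limma adjusted p = 0.132). Without treated liver 1 all 7 were negative, with a median of -2.05, and Cd163 was called (limma adjusted p = 0.0404), as were 0.0232% of all genes in that direction. It was chosen for naming after its values were seen. The summed level of the list overlapped, at 157 to 366 in controls and 151 to 204 in treated livers, and was mostly that of Cd5l and Clec4f. In whole liver, more cells of a type and more RNA per cell cannot be told apart, and the part of these cell markers in the values of the 10 genes was not tested.

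**Figure D3:**
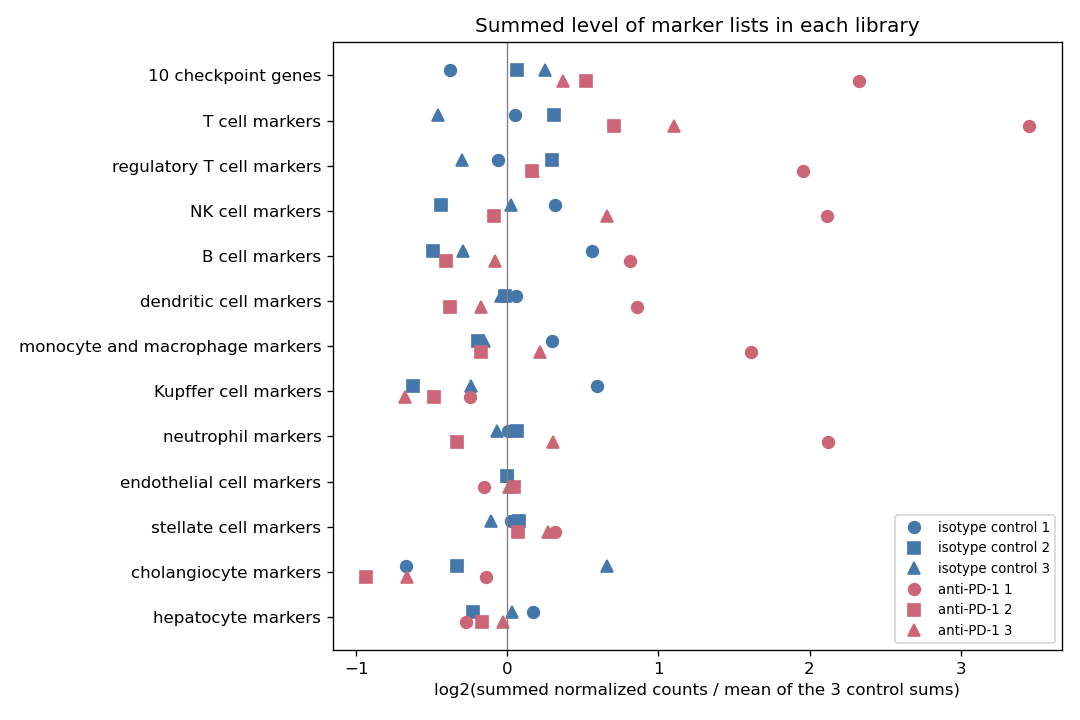
Summed normalized counts of the 10 checkpoint genes and of 12 marker lists in each library, as log2 of the ratio to the mean of the 3 control sums. Treated liver 1 lies to the right of all other libraries for the checkpoint genes and for every immune list except Kupffer cells, farthest for T cell markers (57.5 against 3.82 to 6.49 in controls), and near the others for stellate, endothelial, cholangiocyte and hepatocyte markers.

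To set the receptors beside the T cell signal, reads of Pdcd1, Ctla4, Lag3 and Tigit were counted per library together with the reads of the 13 T cell markers. The receptors had 18, 17 and 9 reads in controls and 396, 24 and 45 in treated livers, beside 101, 120 and 76 and then 1197, 129 and 218 marker reads. Receptor reads were 15.1% (exact 95% interval 9.22 to 22.9), 12.4% (7.40 to 19.1) and 10.6% (4.96 to 19.1) of both together in controls. After anti-PD-1 they were 24.9% (22.8 to 27.1), 15.7% (10.3 to 22.4) and 17.1% (12.8 to 22.2). The interval of treated liver 1 lay above those of control livers 2 and 3 and narrowly overlapped that of control liver 1. Those of the other treated livers overlapped the intervals of all controls. These intervals cover counting error only. The receptors did not all follow the pooled share. Per 100 T cell marker reads, Lag3 had 6.93, 1.67 and 2.63 reads in controls and 11.3 in treated liver 1, and Pdcd1 had 6.93, 4.17 and 2.63 and then 9.44. Ctla4 was also above every control there, at 5.68 against 2.97 in control liver 1 and 0 in the others. Tigit, at 6.68 in treated liver 1, lay within its controls of 0.990, 8.33 and 6.58.

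**Figure D4:**
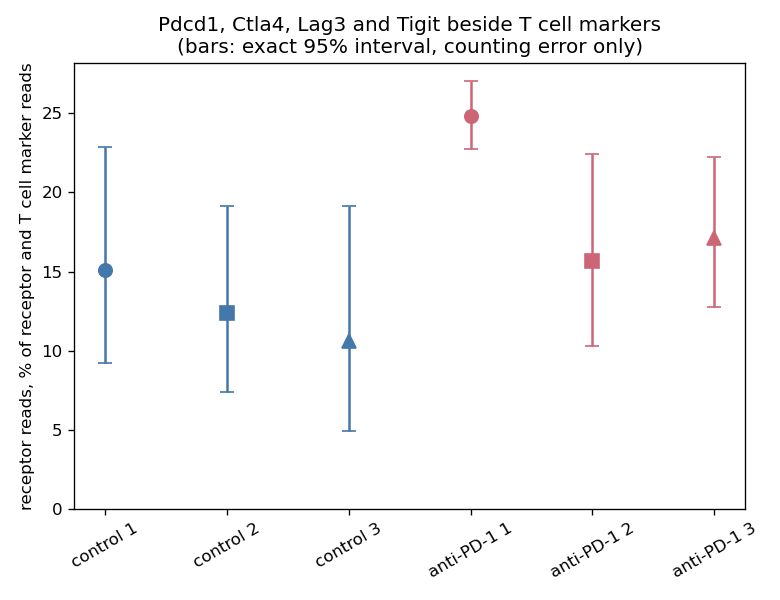
Reads of Pdcd1, Ctla4, Lag3 and Tigit as a percentage of those reads plus T cell marker reads in each library, with exact 95% intervals for counting error. The interval of treated liver 1, around 24.9%, is the narrowest, since it rests on 396 receptor reads against 9 to 45 in the other livers.

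Cd86, Cd274, Cd80 and Havcr2 were set beside macrophage markers, as ratios of normalized counts without counting intervals. Per 100 normalized counts of the 9 macrophage markers, Cd86 was at 0.988, 1.02 and 0.891 in controls and 1.03, 1.99 and 1.05 in treated livers. On this scale treated liver 1 was close to controls and treated liver 2 stood apart, but this rests on Lyz2, the lysozyme gene, which made up 63.5% of the marker sum in treated liver 1 and 32.5 to 47.5% in controls. Without Lyz2 in the sum, in a check added after seeing the values, Cd86 was at 1.88, 1.65 and 1.32 in controls and 2.82, 3.12 and 1.90 in treated livers. Cd274 was at 0.744, 0.893 and 0.679 in controls and 2.46, 1.42 and 0.958 in treated livers, above every control in all 3, as it was without Lyz2. With Lyz2 in the sum, Cd80 was at 0.089, 0.219 and 0.283 in controls and 0.206, 0.303 and 0.169 in treated livers. Havcr2 was at 0.178, 0.517 and 0.212 and then 0.651, 0.512 and 0.327, so both genes overlapped between the groups.

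Among 10167 other genes with a mean of at least 5 normalized counts, those whose log2 levels tracked Cd274 most closely over the 6 livers were Gbp4, Serpina3f, Acvrl1, Sp140 and H2-DMb1 (Pearson r from 0.992 to 0.998). Gbp4, an interferon-inducible GTPase gene, was at 7.55, 7.63 and 5.98 in controls and 54.8, 11.0 and 9.99 in treated livers. H2-DMb1, which helps load peptides onto MHC class II, was at 4.64, 5.25 and 4.12 and then 32.7, 7.86 and 7.14. In both, as in Cd274, treated liver 1 was by far the highest and the other treated livers lay above every control. In all, 284 genes had an r above 0.9, and with 1 library so far from the rest the coefficient mostly reflects that library.

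The other binding partners of these receptors and ligands (15 genes, including the TIM-3 ligands Lgals9 and Ceacam1 and the TIGIT ligand Pvr) had a median log2 fold change of 0.25, with 9 positive, 6 negative and 0 called. Without treated liver 1 the median was 0.03, with 8 positive and 7 negative. Fgl1, a hepatocyte-secreted LAG-3 ligand, was at 65.5, 47.6 and 70.1 in controls and 57.1, 99.2 and 87.7 in treated livers (log2 fold change 0.39 ± 0.22 SE, limma adjusted p = 0.605). It is 1 of the genes in which treated liver 1 was the lowest treated liver. Pvr was at 13.3 ± 3.26 (SD, n = 3) in controls and 16.7 ± 2.00 in treated livers. Timd4 encodes TIM-4, a receptor for phosphatidylserine that also marks resident Kupffer cells. It was at 3.88, 1.73 and 3.57 in controls and 0.865, 0.399 and 0.259 in treated livers, with no overlap (log2 fold change -1.81 ± 0.35 SE, limma adjusted p = 0.245). Timd4 was named for a small p, and 8.52% of all genes had all 3 treated values below all controls.

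Of 17 other inhibitory checkpoint genes listed, 15 were measured, with 10 positive, 5 negative and 0 called (median 0.23, and -0.07 without treated liver 1). Vsig4, a complement receptor of Kupffer cells that restrains T cells, was at 25.4, 15.4 and 16.8 in controls and 20.03, 2.00 and 4.60 in treated livers. Here treated liver 1 lay among the controls and the other treated livers were low (log2 fold change -1.59 ± 0.64 SE, limma adjusted p = 0.489). Nt5e, the adenosine-producing enzyme CD73, showed a like order at 9.66, 12.2 and 14.6 in controls and 12.2, 5.66 and 6.16 in treated livers. Tnfrsf14, the partner of the inhibitory receptor BTLA, was at 4.56 ± 0.64 (SD, n = 3) and 7.02 ± 3.03. Its treated livers were at 10.4, 4.59 and 6.05, and treated liver 2 lay below control liver 1, at 5.29.

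Costimulatory receptors and ligands (8 of 12 measured) had 7 positive and 1 negative log2 fold change and 0 calls. Their median was 0.54, and 0.05 without treated liver 1. Cd40, through which helper T cells activate antigen-presenting cells, was at 0.809, 0.649 and 0.503 in controls and 4.71, 0.599 and 0.673 in treated livers, so only that liver stood out. Icosl was at 1.82 ± 0.45 (SD, n = 3) in controls and 3.16 ± 1.97 in treated livers, which were at 5.43, 1.93 and 2.12. Treated livers 2 and 3 lay below control liver 2, at 2.33. Tnfrsf18, the GITR gene, was at 0.336 ± 0.178 and 1.04 ± 0.807, with treated livers at 1.92, 0.333 and 0.880. Treated liver 2 lay below control liver 2, at 0.541.

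Of 16 transcription factors tied to T cell activation and exhaustion, 14 were positive, 2 negative and 0 called (median 0.51). Leaving out treated liver 1 gave 11 positive and 5 negative (median 0.15). Bach2, a repressor that keeps T cells in a resting or memory state and is not restricted to them, was at 15.6, 9.90 and 11.3 in controls and 18.3, 27.9 and 25.5 in treated livers (log2 fold change 0.93 ± 0.21 SE, limma adjusted p = 0.281). Id2 was at 114, 65.9 and 80.1 in controls and 55.7, 45.5 and 37.6 in treated livers (log2 fold change -0.88 ± 0.21 SE, limma adjusted p = 0.29). In controls Bach2 and Id2 each lay above the sum of the 13 T cell markers (3.82 to 6.49), in values not corrected for gene length. Which cells their reads came from was not tested. For both genes the groups did not overlap, and the difference was not smaller without treated liver 1 (1.11 and -1.02). Both were named for a small p. Of all genes, 6.63% had all 3 treated values above all controls and 8.52% had them below. Nr4a3, an early target of antigen receptor signalling, was at 0.432, 2.22 and 2.31 in controls and 3.84, 3.06 and 4.97 in treated livers, again with control liver 1 far below the other livers, as for Tox.

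PD-1 acts on kinases and phosphatases near the T cell receptor, and of 11 such genes 9 were positive, 2 negative and 0 called (median 0.38, and 0.10 without treated liver 1). Ptpn11, the SHP-2 phosphatase that binds the PD-1 tail, was at 86.3, 83.9 and 87.4 in controls and 79.8, 82.2 and 89.8 in treated livers. It was chosen for naming by its role after its values were seen, and like many cells hepatocytes express it. Lck, a kinase largely confined to lymphocytes, was at 0.755, 0.920 and 0.855 in controls and 5.67, 0.999 and 1.97 in treated livers (log2 fold change 1.08 ± 0.46 SE, limma adjusted p = 0.522). Zap70 was at 10.7, 10.6 and 8.70 in controls and 12.2, 13.5 and 18.5 in treated livers, and Fyn at 13.6 ± 1.54 (SD, n = 3) and 19.2 ± 3.19. Neither gene overlapped between the groups, with an adjusted p of 0.447 and 0.411 by limma. Both were named for a small p, and 6.63% of all genes had all 3 treated values above all controls. Zap70 did not follow the T cell markers, which were highest in treated liver 1. In controls it lay above their sum of 3.82 to 6.49, in values not corrected for gene length. Which cells the Zap70 reads came from was not tested.

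Of 11 genes of the path from interferon-gamma to PD-L1 and of PD-L1 stability, 8 were positive, 3 negative and 0 called (median 0.19, and -0.03 without treated liver 1). Stat3 was at 98.2 ± 8.05 (SD, n = 3) and 137 ± 7.96 (log2 fold change 0.48 ± 0.10 SE, limma adjusted p = 0.275), and the treated livers lay close together. Cmtm4, which with Cmtm6 protects PD-L1 from degradation, was at 71.5 ± 6.89 and 57.7 ± 2.24 (log2 fold change -0.30 ± 0.10 SE, limma adjusted p = 0.437).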

How the data were processed

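Whole-liver RNA of 6 mice was sequenced after ribosomal RNA depletion with a directional kit, per the labels' protocols. Build GRCm39, edgeR, Bowtie2, RSEM 1.3.0 and Trimmomatic 0.38 are listed in the submitters' processing notes, with no role given. The authors deposited a signal, the normalized count of each gene in each library. Every value was a whole multiple of the value of 1 read in its library (100% within 0.001 read), so reads were recovered. Symbols were matched for 21407 of 21512 identifiers.

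Groups were compared in R 4.3.3 by limma-trend (limma 3.58.1) on log2(value + 0.5) over all 21512 genes without a filter, two-sided, with Benjamini-Hochberg adjustment at 0.05. Fold changes are on that scale and understate changes of low genes. As alternatives, DESeq2 1.42.0 and edgeR 4.0.16 took the recovered reads. The tests were tried on simulated counts with changes put only into genes with many reads. That trial says nothing on how changes of genes with few reads are recovered. Counting intervals are exact at 95% and leave out variation between mice. The members and lists were chosen with earlier results of these data known. Named besides the members are, per list, the 3 genes of smallest p with a mean of at least 0.5, and the 5 genes most like Cd274. 1 gene that this rule names is not reported here. Others were chosen after their values were seen.

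The replicate field of the labels numbers the mice 1 to 3 in each group, without saying that a number marks a litter or day. Over 14006 genes, same-numbered livers deviated from their group means with correlations of 0.145, 0.121 and 0.246, all above 0.1. Those of livers with unlike numbers ran from -0.211 to 0.065. On the values alone the numbers may pair the livers, but with 3 livers per group these correlations cannot settle it. The log2 fold changes, SE and limma p of single genes are from the unpaired fit, and the fit with a replicate block was run beside it.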

Additional observations from a re-analysis of the deposited data

How the results depend on the processing

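In limma and edgeR, with every pseudocount, filter, scaling, block and left-out library tried, 0 of the 10 genes were called. DESeq2 called 1. The count of all genes called was 1 in the unpaired limma fit, 3 with columns scaled to the same sum, 236 with DESeq2 and 55 with the replicate block, which changed no call among the 10 genes. Leaving out single libraries gave 0 to 27: 0 without control liver 2, 4 without control liver 3 and 27 without treated liver 1. Without treated liver 1, in fits chosen after seeing the data, it was 50 with edgeR and 515 with DESeq2. The causes were not tested. The log2 fold change of Pdcd1lg2 reversed without treated liver 1 (-0.047 by limma, -0.71 by edgeR and -0.74 by DESeq2), and ranged from -0.047 to 0.772 over the limma fits that left out 1 library each. Of 155 values of single genes under an alternative, 145 kept their direction and their side of the threshold, and 6 from DESeq2 kept their direction but had no adjusted p. The filter of at least 1 normalized count in 3 libraries removed Pdcd1, Pdcd1lg2, Ctla4, Lag3 and Tigit. Their few control reads limit any statement on the size of their differences.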
